A study of Mus musculus with 18 samples.

Results

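The 10 genes described here cover glucose transport and glycolysis from glucose entry to lactate: the glucose transporter gene *Slc2a1*, the hexokinase genes *Hk1* and *Hk2*, and the genes of 1 phosphofructokinase isoform (*Pfkp*), aldolase A (*Aldoa*), glyceraldehyde-3-phosphate dehydrogenase (*Gapdh*), phosphoglycerate kinase (*Pgk1*), phosphoglycerate mutase (*Pgam1*), muscle-type pyruvate kinase (*Pkm*) and lactate dehydrogenase A (*Ldha*). They were taken by symbol, each through its Ensembl identifier, from the 51912 genes of the expected-count table, and all 10 were among the 15710 genes that passed the filter on low counts. RNA-seq had been run on primary mouse embryonic fibroblasts (MEFs) at passage 1, grown at 5% oxygen with 15% serum, from embryos of crosses between *Pole4*+/- *Trp53*+/- mice on the C57BL/6 background. Each of 6 genotypes had 3 libraries. With both *Pole4* alleles intact they were wild-type (*Trp53*+/+), p53 het (*Trp53*+/-) and p53 null (*Trp53*-/-). With both *Pole4* alleles mutated (-/-) they were *Pole4* null (*Trp53*+/+), *Pole4* null p53 het (*Trp53*+/-) and double null (*Trp53*-/-), and these names are used below. All cells carry germline alleles rather than a transgene or Cre. The methods describe a culture for each embryo but do not say whether the 3 libraries of a genotype came from different embryos. Errors below therefore measure the spread between libraries. *Pole4* encodes an accessory subunit of DNA polymerase epsilon, and *Trp53* encodes the p53 tumour suppressor.

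Glucose reaches the fibroblast cytoplasm through facilitative transporters and is split by a fixed chain of enzymes into pyruvate, most of which leaves cultured cells as lactate. Hexokinase and phosphofructokinase catalyse early steps that are regulated and practically irreversible, and pyruvate kinase yields the final ATP. Lactate dehydrogenase A turns pyruvate into lactate and restores the NAD+ that the GAPDH step uses. In proliferating fibroblasts many of these genes are transcribed under hypoxia-inducible factors (HIF) such as HIF-1 and under MYC. The p53 protein is known to restrain glucose uptake and glycolysis in several cell types through targets that include *Tigar*.

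Most promoters of the genes share a short word that the choice of genes did not use. HIF binds core words that include ACGTG, and MYC with its partner MAX binds the E-box CACGTG, which contains ACGTG on both strands. ACGTG, read on either strand, stood in a RefSeq promoter window (GRCm38.p6, 250 bases before to 50 after an annotated start) of 9 of the 10 genes, against 21.8% of 27025 genes. By windows, which for *Aldoa* overlap and count the same match again, it was 10 of 15, against 19.6% of all 32851. *Pfkp* was the gene without ACGTG, and other forms of the HIF core were not searched. These windows were also richer in CG dinucleotides, with a median of 23 against 7, and a match includes CG. Among windows with at least 15 CG dinucleotides, 28.4% of 11378 held the word, and so did 9 of the 11 such windows of the 10 genes. CACGTG stood only in a window of *Ldha*, at positions -145 and -48 counted from the start, against 8.09% of all genes. A match is a run of letters, not a measured binding site. The sequences before the starts of *Hk2*, *Pgk1*, *Pgam1* and *Ldha* are given 5′ to 3′ along each gene, as examples in which the word stood before the start, and the stretches shown end just before the first exon base of the RefSeq transcript. The stretch of *Ldha* lies inside the annotated span of the gene, ahead of an internal start. Capitals mark ACGTG or its reverse complement.
Hk2, chr6:82774455-82774704, minus strand: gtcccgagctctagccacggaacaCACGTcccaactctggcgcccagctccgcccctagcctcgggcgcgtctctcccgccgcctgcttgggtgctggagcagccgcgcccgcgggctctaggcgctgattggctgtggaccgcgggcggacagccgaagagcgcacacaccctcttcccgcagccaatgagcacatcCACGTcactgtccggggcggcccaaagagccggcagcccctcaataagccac
Pgk1, chrX:106186850-106187099, plus strand: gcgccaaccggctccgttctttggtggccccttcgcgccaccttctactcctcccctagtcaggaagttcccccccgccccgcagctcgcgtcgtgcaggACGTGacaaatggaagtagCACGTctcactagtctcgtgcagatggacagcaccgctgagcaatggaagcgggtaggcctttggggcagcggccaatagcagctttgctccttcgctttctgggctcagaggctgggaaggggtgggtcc
Pgam1, chr19:41911621-41911870, plus strand: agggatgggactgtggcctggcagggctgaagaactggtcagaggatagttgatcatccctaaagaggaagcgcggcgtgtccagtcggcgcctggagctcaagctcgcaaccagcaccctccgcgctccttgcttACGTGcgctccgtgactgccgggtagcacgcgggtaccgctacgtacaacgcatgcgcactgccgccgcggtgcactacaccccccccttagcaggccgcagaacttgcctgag
Ldha, chr7:46845554-46845803, plus strand: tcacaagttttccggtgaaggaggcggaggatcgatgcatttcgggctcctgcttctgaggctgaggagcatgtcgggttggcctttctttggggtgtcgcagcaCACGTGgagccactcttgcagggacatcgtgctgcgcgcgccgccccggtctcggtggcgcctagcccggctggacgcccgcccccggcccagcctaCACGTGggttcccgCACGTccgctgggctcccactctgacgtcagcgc

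**Figure D1:**
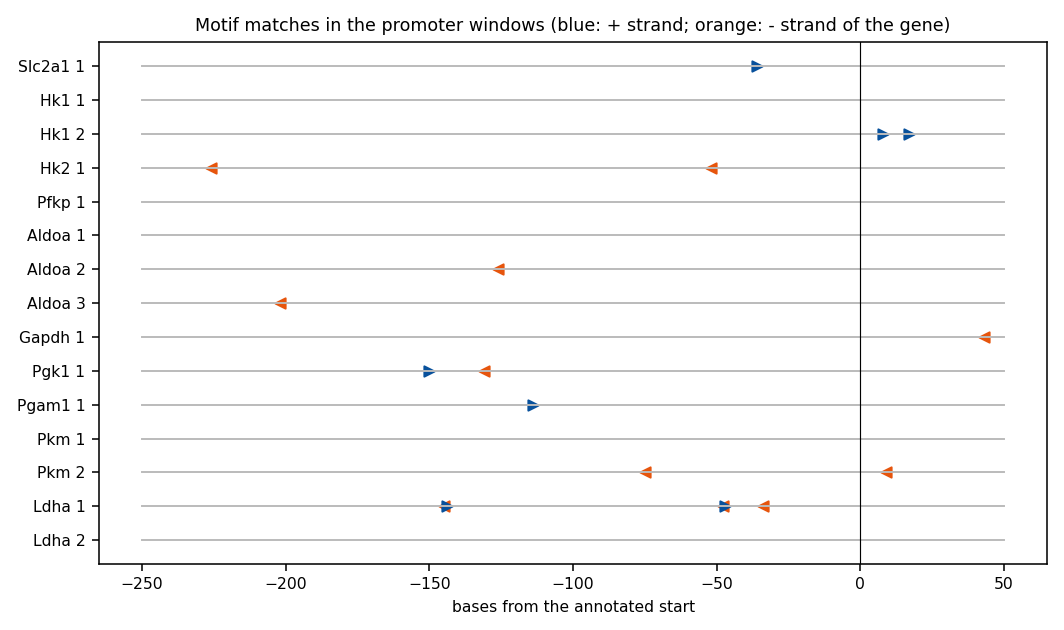
Matches of ACGTG, a HIF core word, in the 15 RefSeq promoter windows of the 10 genes (numbered within a gene). Positions are in bases from the annotated start, on the plus strand (blue) or minus strand (orange) of each gene. Of the windows, 10 hold a match, and the first window of *Ldha* holds 5.

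In *Hk2* the words lay at positions -226 and -52. *Pgk1* held a pair at -150 and -131, 1 on each strand, and *Pgam1* a single match at -114. The E-box of *Ldha* at -48 was followed by a further ACGTG match at -34.

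Libraries held from 9535971 to 35319918 expected counts, of which ribosomal RNA genes took 0.968 to 42.5%, and the fewest counts of any of the 10 genes in a library were 392. Levels are CPM (read counts scaled to a common library size), with library sizes adjusted by the trimmed mean of M-values (TMM). The genotypes were checked first: *Trp53* stood at 8.65 to 12.1 CPM in the *Trp53*-/- libraries and at 48.4 to 96.1 CPM in all others, and *Cdkn1a*, the p53 target encoding p21, at 5.17 to 12.03 CPM against 149 to 363 CPM. *Pole4* stood at 9.26 to 11.99 CPM in *Pole4*-/- and at 14.2 to 26.4 CPM in *Pole4*+/+ libraries. Its transcripts were reduced to 0.51 to 0.52 times the *Pole4*+/+ level, not absent, and which part of the gene is altered cannot be read from gene counts, so the check of this genotype is partial. The markers set for fibroblasts (10 genes, among them *Col1a1* and *Vim*) were detected in all libraries and summed to 14196 to 32487 CPM, against at most 0.647 CPM for erythroid, 48.8 CPM for macrophage and 203.7 CPM for skeletal muscle markers. By *Xist* and Y-linked genes, all wild-type and p53 null libraries were read as female, all p53 het libraries as male, and the other genotypes as mixed. Sex and genotype thus cannot be told apart in the comparison of p53 het with wild-type. The Y-linked genes summed to as much as 7.20 CPM in p53 null, against at most 0.302 CPM in wild-type and at least 165.9 CPM in p53 het. As bulk RNA, a level cannot separate fewer expressing cells from less RNA per cell.

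Per kilobase of the principal transcript, the members fell into an abundant and a low class. *Gapdh* stood highest, at a mean over the 18 libraries of 621 CPM per kilobase, followed by *Pkm* at 578, *Aldoa* at 525, *Ldha* at 489, *Pgk1* at 330.1 and *Pgam1* at 273. The genes at the entry of the pathway were lower, with *Slc2a1* at 34.3, *Hk1* at 21.3, *Pfkp* at 14.1 and *Hk2* at 13.4 CPM per kilobase. Across libraries, the highest value was between 1.46 times (*Pkm*) and 2.13 times (*Hk2*) the lowest.

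**Figure D2:**
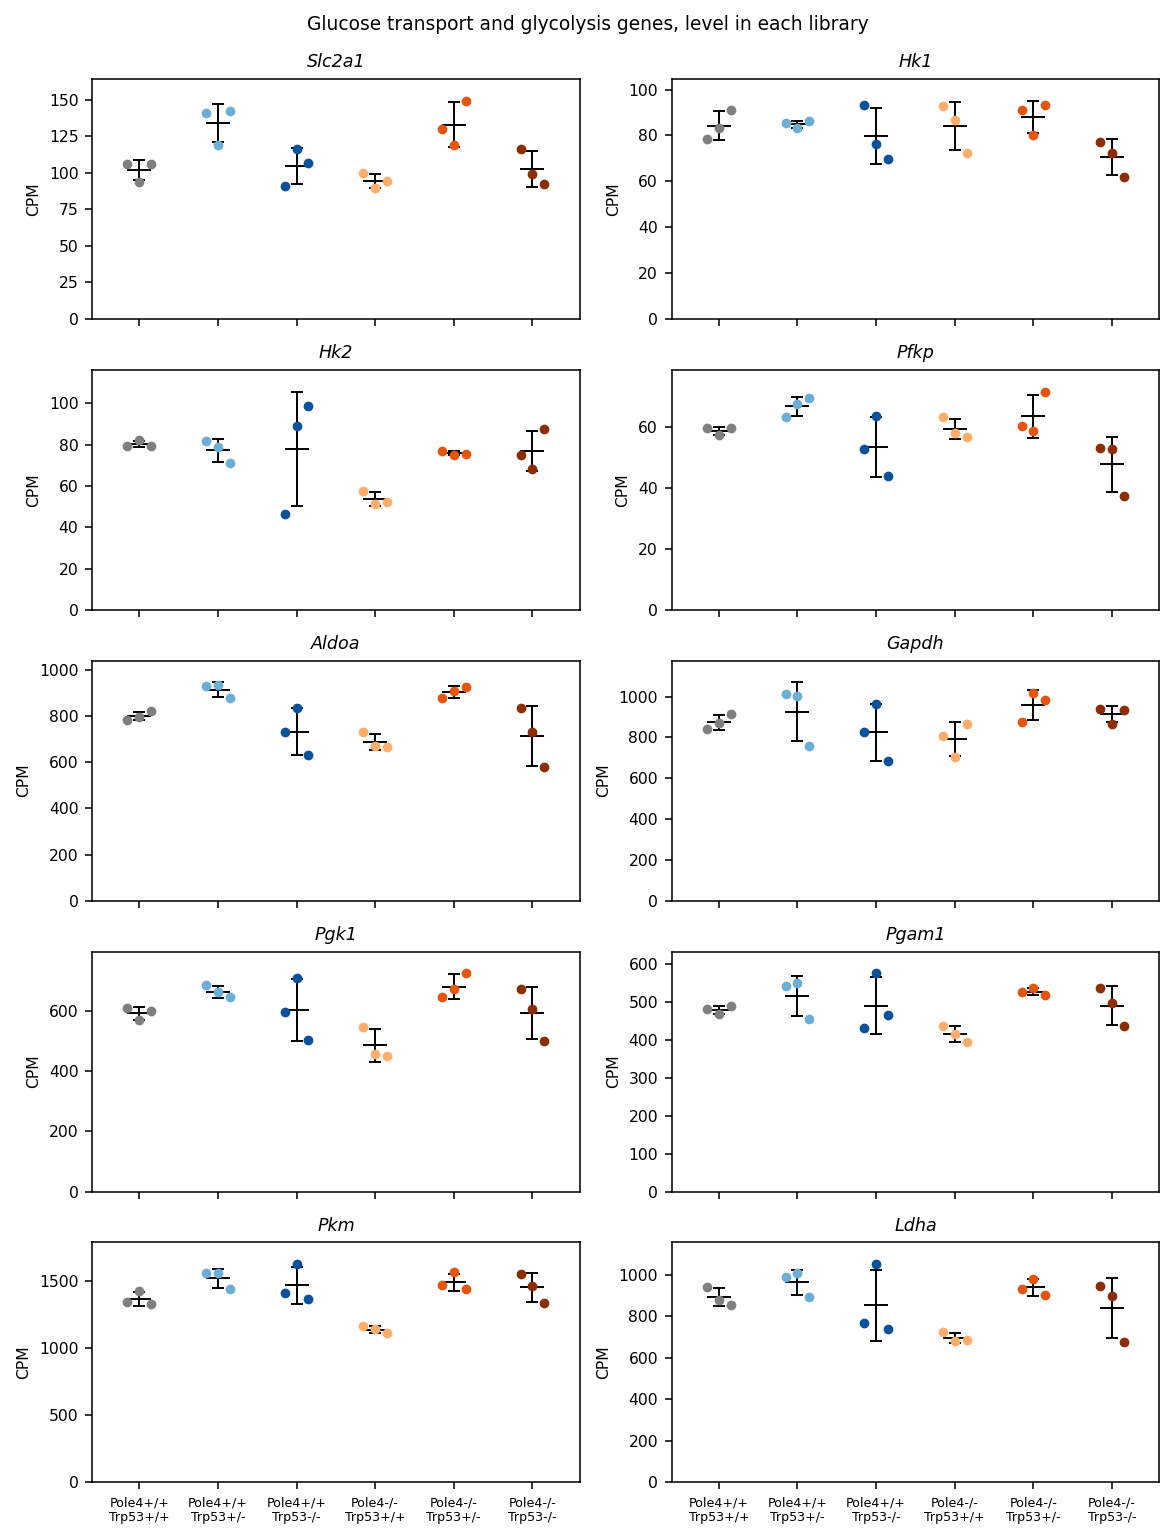
TMM-scaled CPM of the 10 genes in each of the 18 libraries, by genotype; points are libraries, and bars give the mean ± SD (n = 3). For *Pkm* the *Pole4* null libraries had lower values than all others, and for *Hk2* lower values than all but 1 p53 null library.

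Coordinates are of GRCm38. The glucose transporter gene *Slc2a1* (ENSMUSG00000028645, chromosome 4, 119108711 to 119137983, plus strand) encodes GLUT1, the main basal glucose transporter of fibroblasts. Its levels in the 3 libraries, in order of replicate number, were 106, 94.0 and 106 CPM in wild-type, 141, 119 and 142 CPM in p53 het and 91.2, 116 and 107 CPM in p53 null. In the *Pole4*-/- background they were 99.6, 89.6 and 94.4 CPM in *Pole4* null, 130.0, 119 and 149 CPM in *Pole4* null p53 het and 116, 98.9 and 92.2 CPM in double null. The 6 *Trp53*+/- libraries stood above all others, in both *Pole4* backgrounds.

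*Hk1* (ENSMUSG00000037012, chromosome 10, 62268855 to 62379908, minus strand) encodes the hexokinase that most tissues hold constitutively, and *Hk2* (ENSMUSG00000000628, chromosome 6, 82725025 to 82774454, minus strand) encodes the inducible isoform of muscle, embryonic and tumour cells. *Hk2* stood at 79.2, 82.2 and 79.5 CPM in wild-type, 81.7, 78.7 and 71.2 CPM in p53 het and 46.3, 88.96 and 98.5 CPM in p53 null. It stood at 57.4, 51.2 and 52.5 CPM in *Pole4* null, 76.9, 74.9 and 75.7 CPM in *Pole4* null p53 het and 75.2, 68.4 and 87.6 CPM in double null. The *Pole4* null libraries were below every other library except p53 null replicate 1, which stood apart from both others of its genotype. *Hk1* ranged over 72.4 to 92.7 CPM in *Pole4* null and 62.1 to 77.3 CPM in double null, and its genotypes overlapped each with the next in order of level. *Hk2* lies 19659 bases from *Pole4* on chromosome 6, so the alleles of both genes are linked. The part of that linkage in the result was not tested. The *Trp53*+/- libraries, which differ in the same *Pole4* alleles, overlapped, at 74.9 to 76.9 CPM in *Pole4* null p53 het and 71.2 to 81.7 CPM in p53 het.

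*Pfkp* (ENSMUSG00000021196, chromosome 13, 6579768 to 6648777, minus strand) encodes the platelet-type phosphofructokinase. It averaged 66.8 ± 3.15 CPM (SD, n = 3) in p53 het and 47.8 ± 9.05 CPM in double null, its highest and lowest genotypes. Its values are uncertain, because 748 exonic bases are shared with *Pitrm1* on the opposite strand, the library kit does not mark strand, and *Pitrm1* had 249% of the counts of *Pfkp*. *Aldoa* (ENSMUSG00000030695, chromosome 7, 126795234 to 126800751, minus strand) splits fructose-1,6-bisphosphate. It stood at 666 to 730.4 CPM in *Pole4* null, 785 to 821 CPM in wild-type and 879 to 928 CPM in *Pole4* null p53 het, ranges that did not overlap.

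*Gapdh* (ENSMUSG00000057666, chromosome 6, 125161715 to 125166467, minus strand) is often used to scale other genes in fibroblasts. Its libraries stood at 703 to 867 CPM in *Pole4* null and at 874 to 1016 CPM in *Pole4* null p53 het, the lowest and the highest genotype, and each genotype overlapped the next in order of level. *Pgk1* (ENSMUSG00000062070, chromosome X, 106187100 to 106203699, plus strand), which makes the first ATP of the pathway and is X-linked, stood at 608, 568 and 599.9 CPM in wild-type, 684, 661 and 644 CPM in p53 het and 596, 707 and 503 CPM in p53 null. In the *Pole4*-/- background it stood at 547, 458 and 451 CPM in *Pole4* null, 645, 672 and 724 CPM in *Pole4* null p53 het and 671, 606 and 499 CPM in double null. The *Pole4* null libraries were lower than those of *Pole4* null p53 het without overlap. *Pgam1* (ENSMUSG00000011752, chromosome 19, 41911923 to 41918660, plus strand) ranged over 393 to 435 CPM in *Pole4* null, 468 to 488 CPM in wild-type and 517 to 537 CPM in *Pole4* null p53 het, also without overlap. Processed pseudogenes named for a member (its symbol plus -ps or -rs) held at most 0.26% of its counts over all libraries. Pseudogenes under other symbols were not counted. In any library the share was at most 0.497%, except for *Pgk1*. Its named pseudogenes held 12.5% in *Pole4* null replicate 3, the lowest *Pgk1* library, and 2.88% in double null replicate 3. With the counts of the named pseudogenes added to the member, *Pgk1* in *Pole4* null p53 het against *Pole4* null stood at 0.43 (adjusted p = 0.0499).

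*Pkm* (ENSMUSG00000032294, chromosome 9, 59656368 to 59679375, plus strand) encodes both M1 and M2 pyruvate kinase, which gene counts do not separate. It stood at 1343, 1429 and 1328 CPM in wild-type, 1562, 1557 and 1441 CPM in p53 het and 1412, 1625 and 1366 CPM in p53 null. In the *Pole4*-/- background it was 1162, 1142 and 1113 CPM in *Pole4* null, 1467, 1565 and 1441 CPM in *Pole4* null p53 het and 1555, 1465 and 1337 CPM in double null. Every *Pole4* null library was below all 15 others. *Ldha* (ENSMUSG00000063229, chromosome 7, 46841475 to 46855627, plus strand) stood at 725, 679 and 686 CPM in *Pole4* null, 934, 981 and 902 CPM in *Pole4* null p53 het and 945, 900.2 and 676 CPM in double null, against 939, 881 and 856 CPM in wild-type. The double null replicate 3 fell below the *Pole4* null libraries for *Ldha*, and it held the lowest value of all 18 libraries for *Aldoa*, *Hk1*, *Pfkp* and *Ldha* alike. By genotype means, *Pole4* null was lowest for 8 of the 10 genes and double null for *Hk1* and *Pfkp*, and a *Trp53*+/- genotype was highest for 9, with wild-type highest for *Hk2*.

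Between *Pole4*-/- and *Pole4*+/+ cells that kept both copies of *Trp53*, no member passed the test, and 9 of the 10 had negative log2 fold changes. Of the 10 genes, 6 (*Hk2*, *Aldoa*, *Pgk1*, *Pgam1*, *Pkm* and *Ldha*) were lower in all 3 *Pole4* null than in all 3 wild-type libraries, as were 21.7% of all genes tested. The test called 3.98% of all genes. Testing was by edgeR's quasi-likelihood F-test over all 18 libraries with Benjamini-Hochberg adjustment over the 15710 genes, a call is an adjusted p under 0.05, errors of log2 fold changes are SE, and a value in parentheses after an estimate is its adjusted p. At an unadjusted p under 0.05 the count was 4, all lower, as for 14.8% of all genes. The log2 fold change was -0.58 ± 0.19 for *Hk2* (adjusted p = 0.0827), -0.26 ± 0.09 for *Pkm* (0.0994), -0.36 ± 0.14 for *Ldha* (0.119) and -0.29 ± 0.13 for *Pgk1* (0.167). *Aldoa* stood at -0.22, *Pgam1* at -0.21, *Gapdh* at -0.14 and *Slc2a1* at -0.11, and *Hk1* and *Pfkp* were within 0.02 of 0. The median of the 10 was -0.21, against 0.01 for all genes tested. DESeq2 called 2 of the 10 (*Hk2* and *Pkm*), and a fit of only these 6 libraries called 3, with *Ldha* in addition, where the same fits called 6.52 and 13.2% of all genes lower. Leaving out p53 null replicate 1, a library outside the comparison, also gave 2 calls, and leaving out p53 null replicate 3 gave 1, *Hk2*, with 12.3 and 5.45% of all genes called lower. Of the *Pole4* null libraries 2 expressed Y-linked genes and of the wild-type none, and with log2 *Xist* as a covariate the calls over all genes dropped from 626 to 3. Ribosomal RNA genes took 7.11 to 42.5% of counts in *Pole4* null and 5.81 to 11.2% in wild-type, and scaling by library totals without them called *Hk2*, *Pkm* and *Ldha*, all lower, as were 8.39% of all genes. The fibroblast markers summed to 25336 to 32487 CPM in *Pole4* null and 16654 to 22930.5 CPM in wild-type, with 1 of 10 called, higher. The part of either in the result was not tested further.

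With 1 copy of *Trp53* missing in *Pole4*-/- cells, *Slc2a1*, *Pgk1* and *Pkm* rose, and all 10 members had positive log2 fold changes. Of all genes tested, 2.96% were called higher and 5.12% in either direction. The log2 fold change was 0.49 ± 0.11 for *Slc2a1* (1.41-fold, adjusted p = 0.0314), 0.49 ± 0.13 for *Pgk1* (1.40-fold, 0.0408) and 0.39 ± 0.09 for *Pkm* (1.31-fold, 0.0318). *Hk2* (0.50 ± 0.19, 0.116), *Ldha* (0.43 ± 0.14, 0.0705), *Aldoa* (0.39 ± 0.12, 0.0658) and *Pgam1* (0.35 ± 0.11, 0.0741) did not pass, nor did *Gapdh* at 0.27, *Pfkp* at 0.10 or *Hk1* at 0.07. For 8 of the 10, all but *Hk1* and *Pfkp*, every *Pole4* null p53 het library exceeded every *Pole4* null library, as for 21.4% of all genes. The median of the 10 was 0.39, with -0.01 for all genes tested.

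How many of these calls were made depended on the fit. DESeq2 called 6 of the 10 and a fit of only the 6 libraries called 7, all higher, where they called 6.75 and 10.7% of all genes higher. The fit with the replicate number as a block called 4, with *Ldha* in addition, and 3.35% of all genes higher. With log2 *Xist* as a covariate, since 2 of the *Pole4* null and 1 of the *Pole4* null p53 het libraries are male, none was called. None was called either without *Pole4* null p53 het replicate 2, or without *Pole4* null replicate 2 or 3, and 1 (*Pkm*) without *Pole4* null p53 het replicate 3. The *Pgk1* call was the least stable of the 3, kept in 9 of 18 omissions against 14 of 18 each for *Slc2a1* and *Pkm*. Beside those 4 omissions it was lost without *Pole4* null p53 het replicate 1, double null replicate 2, p53 het replicate 2 or wild-type replicate 1 or 2, and the *Pkm* call also without *Pole4* null replicate 1. Ribosomal RNA genes took 3.75 to 15.5% of counts in *Pole4* null p53 het and 7.11 to 42.5% in *Pole4* null, and scaling by library totals without them called 6 members, all higher, as were 6.93% of all genes. The part of this difference in the result was not tested further. Leaving out 1 of the p53 null libraries, which are no part of the comparison, gave 7 calls for replicate 1 and 6 for replicate 2 or 3, all higher, with 12.5, 3.57 and 6.10% of all genes called higher without replicates 1, 2 and 3. Without any 1 library, the log2 fold change ranged over 0.41 to 0.57 for *Slc2a1*, 0.44 to 0.61 for *Pgk1* and 0.36 to 0.43 for *Pkm*.

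When both copies of *Trp53* were missing in *Pole4*-/- cells, *Hk2* and *Pkm* rose, and 8 of the 10 members had positive and 2 negative log2 fold changes. The log2 fold change was 0.52 ± 0.19 for *Hk2* (1.43-fold, adjusted p = 0.036) and 0.35 ± 0.09 for *Pkm* (1.28-fold, 0.00665), against the same *Pole4* null libraries that served the *Trp53*+/- comparison. This is 2 of 10 called, both higher, where 42.6% of all genes were called and 21.8% called higher. *Pgk1* at 0.29 ± 0.13 (0.0796), *Ldha* at 0.27 ± 0.14 (0.119), *Pgam1* at 0.24 ± 0.11 (0.0899) and *Gapdh* at 0.21 ± 0.13 (0.23) were not called. *Slc2a1*, at 0.11, and *Aldoa*, at 0.05, lay near 0. Negative values were those of *Pfkp* (-0.31 ± 0.14, 0.078) and *Hk1* (-0.25 ± 0.12, 0.0979); *Pitrm1*, which overlaps *Pfkp*, was higher in the same comparison (0.68 ± 0.11, adjusted p = 0.00022). The groups did not overlap for 5 of the 10 (*Hk2*, *Gapdh*, *Pgam1* and *Pkm* higher, *Pfkp* lower), against 57.0% of all genes.

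The *Pkm* call held without any 1 library (0.30 to 0.41) and under all 8 other settings. That of *Hk2* was lost without double null replicate 1 or 3 or *Pole4* null replicate 2 or 3 (0.42 to 0.60 over all omissions), with log2 *Xist* as a covariate and with upper-quartile scaling. Under that scaling, which moved the median of all genes from -0.02 to -0.11, *Hk1* and *Pfkp* were called lower at -0.35 and -0.41 beside 42.8% of all genes called, and *Aldoa* turned to -0.04. The double null libraries had 24.7 to 30.0% of counts in ribosomal RNA genes and the *Pole4* null libraries 7.11 to 42.5%. The part of this difference in the result was not tested beyond scaling by library totals without those genes, which called *Hk2*, *Pkm* and *Pgam1* and 42.2% of all genes. The fibroblast markers also differed between these groups, with 5 of 10 called lower and 1 higher in double null, and summed to 14196 to 16964 CPM there against 25336 to 32487 CPM in *Pole4* null. The 6 neuron markers summed to 76.8 to 96.1 CPM in *Pole4* null and 122.5 to 144.5 CPM in double null. Of these, *Rbfox3*, *Snap25* and *Elavl3* reached at most 0.349 CPM in any library. Skeletal muscle markers, given below, also differed. The part of these marker differences in the result was not tested.

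**Figure D3:**
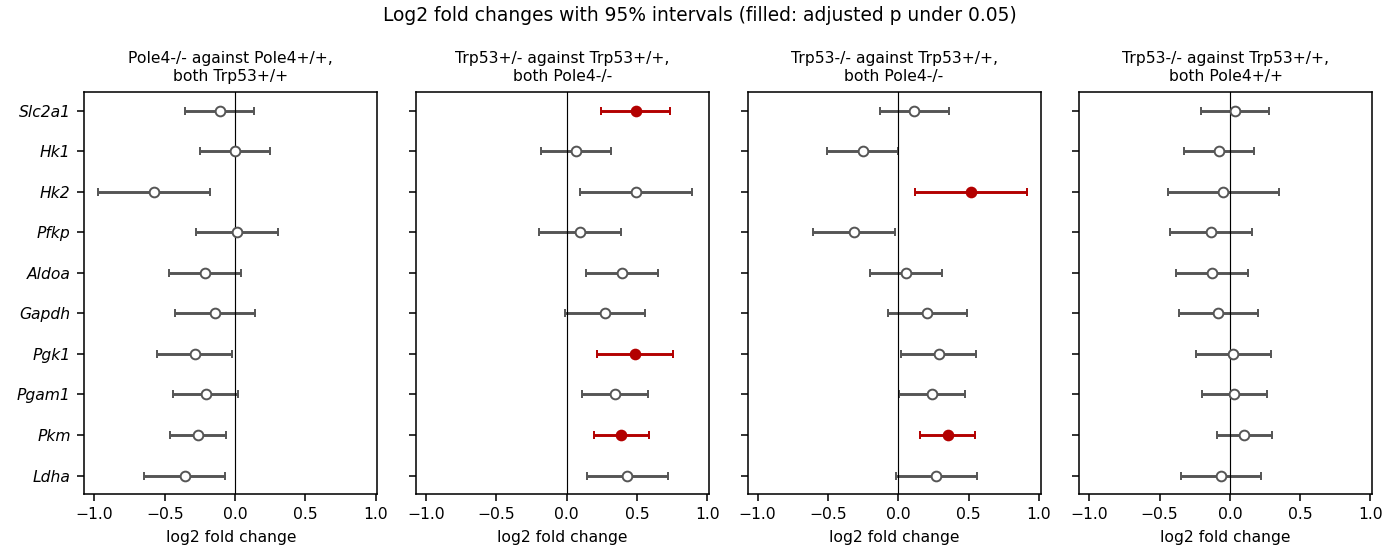
Log2 fold changes of the 10 genes with 95% intervals in 4 comparisons; filled red points have an adjusted p under 0.05 over all genes tested. The first 3 panels share the *Pole4* null libraries, and filled points stand for 3 genes in the second panel and 2 in the third.

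In *Pole4*+/+ cells no member was called for either *Trp53* genotype. For p53 null against wild-type, where 4.60% of all genes were called, the log2 fold changes lay between -0.13 (*Pfkp*) and 0.10 (*Pkm*), no member had an unadjusted p under 0.05 (19.0% of all genes did), and the groups overlapped for all 10, whereas 16.5% of all genes did not overlap. DESeq2 also called none. The value of *Hk2* depended on which p53 null libraries were kept: its log2 fold change was -0.05 with all, 0.19 without replicate 1 and -0.27 without replicate 3, uncalled in each. For p53 het against wild-type, where 0.904% of all genes were called, *Slc2a1* stood at 0.40 ± 0.11 (adjusted p = 0.135), the single member with an unadjusted p under 0.05, against 10.2% of all genes, and DESeq2 called it with 2.57% of all genes. *Aldoa* (0.19), *Pfkp* (0.18), *Pgk1* (0.16) and *Pkm* (0.15) were, with *Slc2a1*, the 5 genes for which the groups did not overlap, all higher in p53 het, as were 10.2% of all genes.

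No member was called between *Pole4* genotypes in *Trp53*+/- or *Trp53*-/- cells. Between *Pole4* null p53 het and p53 het the 10 log2 fold changes lay within -0.07 to 0.06, and between double null and p53 null within -0.18 to 0.15, with no unadjusted p under 0.05 in either, against 5.51 and 10.4% of all genes. Each of these comparisons called 1 gene of the 15710 (0.00637%), and DESeq2 called 43 and 29 genes, no member among them. The effect of *Trp53* loss itself was compared between *Pole4* backgrounds as an interaction, which called 0.331% of genes and no member. *Hk2* had the highest difference, 0.57 ± 0.26 (95% interval 0.01 to 1.13, adjusted p = 0.173), and the single unadjusted p under 0.05 among the members, against 28.3% of all genes. *Ldha* followed at 0.33 ± 0.19 (0.259), and *Pfkp* had the lowest at -0.18 ± 0.19 (0.558). DESeq2 called no member in the interaction. The *Hk2* difference ranged from 0.31 without p53 null replicate 1 to 0.77 without p53 null replicate 3, where it was called along with 20.1% of all genes.

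Isoform pairs were compared as ratios of counts within a library, which scaling between libraries does not touch; the pairs were chosen after their values had been seen, so the ratios are given without a test. The ratio of *Slc2a3*, encoding the high-affinity transporter GLUT3, to *Slc2a1* was 0.0459, 0.0413 and 0.0403 in wild-type and 0.0911, 0.0768 and 0.0848 in p53 null. In the *Pole4*-/- background it was 0.0380, 0.0428 and 0.0340 in *Pole4* null and 0.0696, 0.0751 and 0.0993 in double null. All 6 *Trp53*-/- libraries were above the other 12, and the ratio was 1.98 times as high in p53 null as in wild-type and 2.11 times as high in double null as in *Pole4* null. Per kilobase, *Slc2a3* averaged 1.61 CPM over all libraries, against 34.3 CPM for *Slc2a1*.

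For the hexokinases the ratio of *Hk2* to *Hk1* was 0.619, 0.590 and 0.725 in *Pole4* null, against 1.01, 0.987 and 0.872 in wild-type, 0.844, 0.932 and 0.812 in *Pole4* null p53 het and 0.972, 0.946 and 1.41 in double null. The ratio of *Ldhb*, whose subunit favours the lactate-to-pyruvate direction, to *Ldha* was 0.0313, 0.0415 and 0.0435 in *Pole4* null and 0.0170, 0.0169 and 0.0220 in wild-type. It was 0.0167, 0.0154 and 0.0221 in *Pole4* null p53 het and 0.0142, 0.0145 and 0.0195 in double null. For *Ldhb* the *Pole4* null libraries lay above all 15 others, and for hexokinase they lay below all others but p53 null replicate 1.

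**Figure D4:**
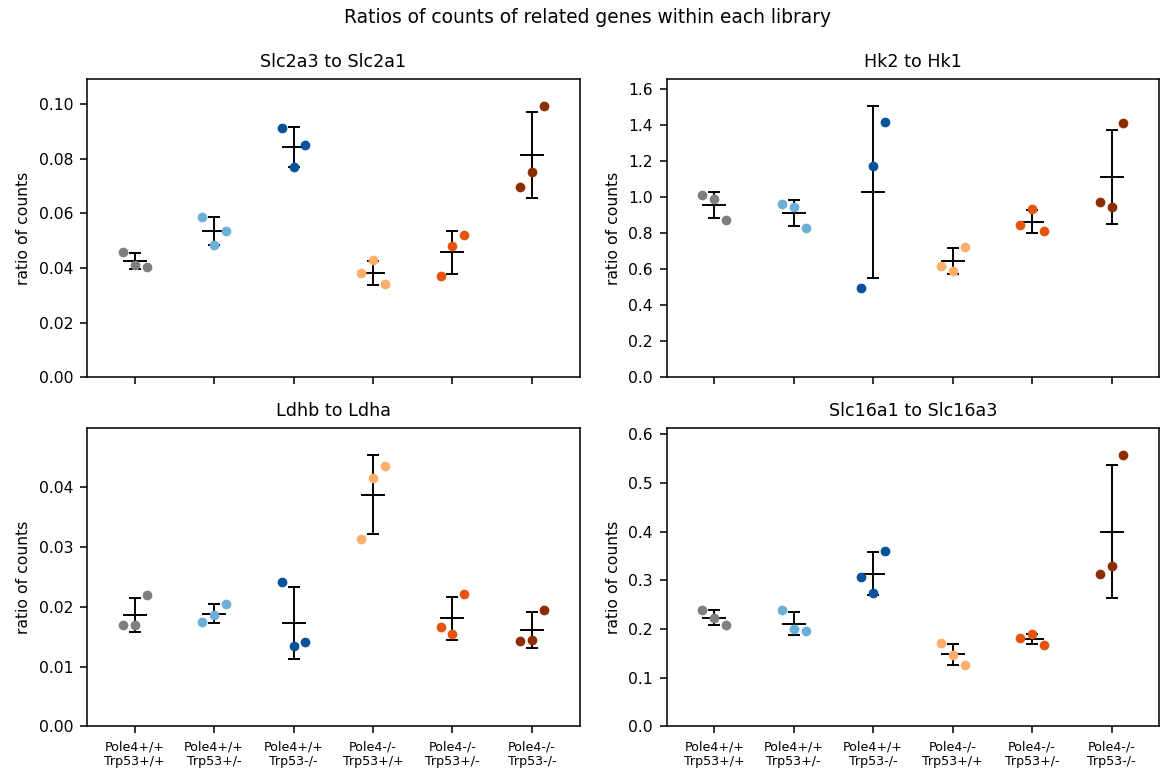
Ratios of expected counts of related genes within each library, by genotype, for glucose transporters, hexokinases, lactate dehydrogenases and monocarboxylate transporters; points are libraries and bars the mean ± SD (n = 3). *Slc2a3* to *Slc2a1* is highest in the *Trp53*-/- genotypes, and *Ldhb* to *Ldha* is highest in *Pole4* null.

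Among the other transporters and glycolytic isoforms, 20 of 28 genes were tested. In double null against *Pole4* null 3 rose and 8 fell, where 42.6% of all genes were called, with a median of -0.74. *Slc2a3* rose by a log2 fold change of 1.17 ± 0.19 (adjusted p = 0.000199) and *Eno1*, the enolase gene between *Pgam1* and *Pkm* in the chain, by 0.52 ± 0.14 (0.00873). The *Eno1* copy *Eno1b* had 1.69% of the counts of *Eno1* over all libraries, but 22.0% in *Pole4* null replicate 3, against at most 5.12% in any other. With its counts added, an alternative chosen after seeing the data, *Eno1* stood at 0.46 ± 0.13 (0.00946) here and at -0.52 ± 0.13 (0.0375) in *Pole4* null against wild-type. The urate and fructose transporter gene *Slc2a9* (15 to 39 counts in *Pole4* null and 3 to 4 in double null) stood at -3.10 ± 0.47 (0.000134) and the muscle mutase *Pgam2* (10 to 36 and 0 to 7 counts) at -2.88 ± 0.95 (0.0226), values that depend on the added prior count. The *Pgam2* call was lost without double null replicate 2 or 3 or *Pole4* null replicate 1 or 3 (-3.83 to -2.40 over all omissions), and that of *Eno1* without *Pole4* null replicate 3 (0.41 to 0.69). Skeletal muscle markers, 8 genes with *Ckm* at 0 in 16 of the 18 libraries, summed to 141 to 152 CPM in *Pole4* null and 56.0 to 71.4 CPM in double null. The sum was mostly *Acta1* and *Des*, both called lower there, while of the 4 other markers tested none was called, 3 had positive log2 fold changes (*Myod1* 2.03, *Myog* 0.65 and *Ttn* 0.08) and *Myh3* stood at -0.04. Their part in the fall of *Pgam2* was not tested.

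In p53 null against wild-type the same list had 1 call each way, where 4.60% of all genes were called, *Slc2a3* at 1.01 ± 0.18 (0.00401) and *Slc2a9* at -2.21 ± 0.45 (0.00995). The latter was lost without wild-type replicate 3 (-2.46 to -1.78 over all omissions), and both in a fit of only the libraries compared. In *Pole4* null p53 het against *Pole4* null, *Slc2a3* (0.74 ± 0.19, 0.0367) and *Gpi1* (0.31 ± 0.09, 0.0493), the phosphoglucose isomerase gene, rose, where 5.12% of all genes were called. There *Ldhb* (-0.66 ± 0.17, 0.0391) and the insulin-responsive transporter gene *Slc2a4* (-1.72 ± 0.48, 0.048) fell. Between *Pole4* null and wild-type, where 3.98% of all genes were called, the calls were *Eno1* at -0.62 ± 0.14 (0.0309), *Ldhb* at 0.69 ± 0.17 (0.0375) and *Slc2a4* at 2.15 ± 0.49 (0.0308). *Eno1* stood at 1182, 950.1 and 827 CPM in *Pole4* null and 1513, 1554 and 1483 CPM in wild-type. These calls were kept in 14 of 18 single-library omissions for *Eno1*, 8 of 18 for *Ldhb* and 13 of 18 for *Slc2a4* against wild-type. That of *Eno1* was lost without *Pole4* null replicate 2 or 3 or wild-type replicate 1 or 2 (-0.80 to -0.51 over all omissions). Those against *Pole4* null were kept in 13 of 18 for *Slc2a3*, 5 of 18 for *Gpi1*, 6 of 18 for *Ldhb* and 3 of 18 for *Slc2a4*, and with *Xist* as a covariate none of the 7 remained.

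Lactate leaves the cell through monocarboxylate transporters. *Slc16a1*, encoding MCT1, stood at 22.3, 16.2 and 14.6 CPM in *Pole4* null, 37.8, 30.7 and 31.1 CPM in wild-type and 30.7, 33.2 and 32.0 CPM in *Pole4* null p53 het. It reached 53.5, 49.2 and 55.3 CPM in double null and 40.8, 51.8 and 56.4 CPM in p53 null. The *Pole4* null libraries were below all others. The log2 fold change was 1.55 ± 0.16 (7.19e-06) in double null and 0.84 ± 0.16 (0.0147) in *Pole4* null p53 het against *Pole4* null, 0.58 ± 0.15 (0.0427) in p53 null and -0.89 ± 0.16 (0.0185) in *Pole4* null against wild-type. *Slc16a3*, encoding MCT4, rose in *Pole4* null p53 het against *Pole4* null (0.59 ± 0.16, 0.0453) and stood at 0.23 ± 0.16 (0.258) in double null. Over the 18 omissions the *Slc16a1* call was kept in 18 of 18 for double null, 15 of 18 for *Pole4* null p53 het, 4 of 18 for p53 null and 14 of 18 for *Pole4* null, and that of *Slc16a3* in 6 of 18. The *Slc16a1* call for *Pole4* null p53 het was lost without *Pole4* null p53 het replicate 2 or *Pole4* null replicate 2 or 3 (0.73 to 1.08 over all omissions), and for *Pole4* null without *Pole4* null replicate 2 or 3 or wild-type replicate 1 or 2 (-1.14 to -0.78) and with *Xist* as a covariate.

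Pyruvate oxidation within mitochondria is gated by the pyruvate dehydrogenase complex, its kinases and its phosphatases. Of 18 genes on the fate of lactate and pyruvate, 5 rose and 4 fell in double null against *Pole4* null, against 42.6% of all genes called. The kinase gene *Pdk2* fell by 2.15 ± 0.40 (0.000692) and the pyruvate carboxylase gene *Pcx* by 0.98 ± 0.36 (0.0367) on the log2 scale, while the phosphatase gene *Pdp2* rose by 0.57 ± 0.12 (0.0019). The *Pcx* call was lost without double null replicate 2 or 3, without any 1 of the *Pole4* null libraries (-1.18 to -0.86 over all omissions) and under 3 of the 8 settings. In the *Pole4*+/+ background the kinase gene *Pdk4* was lower in p53 null (-0.58 ± 0.15, 0.0325) and in p53 het (-0.66 ± 0.15, 0.0461) than in the shared wild-type libraries. The *Pdk4* calls were kept in 14 of 18 and 6 of 18 omissions, the former lost without p53 null or wild-type replicate 2 or 3 (-0.68 to -0.49).

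In the pentose phosphate pathway, which diverts glucose-6-phosphate to ribose and NADPH, 4 of 8 genes rose and 2 fell in double null against *Pole4* null, where 42.6% of all genes were called. *Rpia* (0.76 ± 0.16, 0.00163) and *Taldo1* (0.32 ± 0.09, 0.0111) rose, and *Pgls* (-0.73 ± 0.09, 2.96e-05) and *H6pd* (-0.51 ± 0.11, 0.00177) fell. The *Taldo1* call was lost without double null replicate 3 (0.27 to 0.40 over all omissions). *Pgd* and *Taldo1* rose in *Pole4* null p53 het against *Pole4* null (0.35 ± 0.09, 0.0388, and 0.35 ± 0.09, 0.041) and were lower in *Pole4* null than in wild-type (-0.35 ± 0.09, 0.045, and -0.36 ± 0.09, 0.0418); all these share the *Pole4* null libraries, were kept in 9 to 11 of 18 omissions and were lost with *Xist* as a covariate. Of 6 gluconeogenesis genes 2 were tested. In double null against *Pole4* null their log2 fold changes were -0.55 ± 0.26 for *Pck2* (adjusted p = 0.107) and -0.38 ± 0.15 for *G6pc3* (0.0581).

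Regulators of glucose use moved in double null cells in both directions. *Txnip*, which restrains glucose uptake and reports glucose supply, stood at 91.8, 63.9 and 72.9 CPM in *Pole4* null and 34.2, 31.7 and 51.3 CPM in double null, a log2 fold change of -0.97 ± 0.21 (0.00187). In p53 null against wild-type it stood at -0.21 ± 0.21 (0.66), with -0.35 to 0.01 over the omissions. *Tigar*, a fructose-2,6-bisphosphatase known as a p53 target, was higher in double null than in *Pole4* null (0.41 ± 0.14, 0.027), at 15.6, 14.8 and 16.1 against 11.8, 11.6 and 11.5 CPM. This call was lost without double null replicate 1 or 3 or any 1 of the *Pole4* null libraries (0.39 to 0.45 over all omissions). In p53 null it stood at -0.21 ± 0.14 (0.463) against wild-type. The phosphofructokinase-2 gene *Pfkfb2* fell in double null (-1.10 ± 0.18, 0.000203) and in *Pole4* null p53 het (-0.74 ± 0.17, 0.0301) against *Pole4* null, the latter kept in 12 of 18 omissions. In all, 1 of the 7 regulators rose and 3 fell in double null against *Pole4* null, beside 42.6% of all genes called.

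Of 8 genes of transcription factors and their partners, 3 rose and 3 fell in double null against *Pole4* null, with 42.6% of all genes called. *Myc* rose by 1.35 ± 0.26 (0.000871), from 41.2, 36.3 and 36.4 CPM in *Pole4* null to 91.2, 89.5 and 110.1 CPM in double null, and *Mycn* by 2.04 ± 0.44 (0.0017). *Hif1a*, encoding the oxygen-regulated subunit of HIF-1, fell by 0.45 ± 0.16 (0.0363) (range 283 to 359 CPM in *Pole4* null and 241 to 243 CPM in double null), and *Epas1*, encoding that of HIF-2, by 1.66 ± 0.38 (0.00303). The *Hif1a* call was lost without any 1 of the double null libraries or *Pole4* null replicate 1 or 3 (-0.54 to -0.36 over all omissions) and under 2 of the 8 settings. In p53 null against wild-type *Myc* was at 0.43 ± 0.25 (0.396), with 0.09 to 0.71 over the single-library omissions and a call only without p53 null replicate 1. Transcript levels say nothing of HIF-1α protein, which oxygen controls after translation.

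Of 18 hypoxia-inducible genes outside glycolysis, 2 rose and 6 fell in double null against *Pole4* null, a share called close to the 42.6% of all genes, with a median of -0.31 where that of the 10 glycolysis genes was 0.22. *Egln3*, a HIF prolyl hydroxylase gene, rose by 0.89 ± 0.27 (0.0147) with overlapping groups, and *Egln1* by 0.26 ± 0.10 (0.0469). The *Egln3* call was lost without double null replicate 1 or *Pole4* null replicate 2 or 3 (0.54 to 1.17 over all omissions), and that of *Egln1* was kept in 4 of 18. *Ddit4*, an inhibitor of mTORC1 signalling, fell by 1.04 ± 0.29 (0.00925) and the collagen prolyl hydroxylase gene *P4ha2* by 0.97 ± 0.21 (0.00196). In *Pole4* null p53 het against *Pole4* null 1 of the 18, *Egln3*, was called (1.07 ± 0.27, 0.037), a share close to the 5.12% of all genes, and in p53 het against wild-type 1, *Ndrg1* (1.01 ± 0.18, 0.0164), where 0.904% of all genes were called. These calls were kept in 13 of 18 and 14 of 18 omissions and lost with *Xist* as a covariate. For *Ndrg1* that covariate cannot separate sex from genotype, because all p53 het libraries were male and all wild-type libraries female. The median of the hypoxia list in those comparisons was 0.17 and 0.30.

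**Figure D5:**
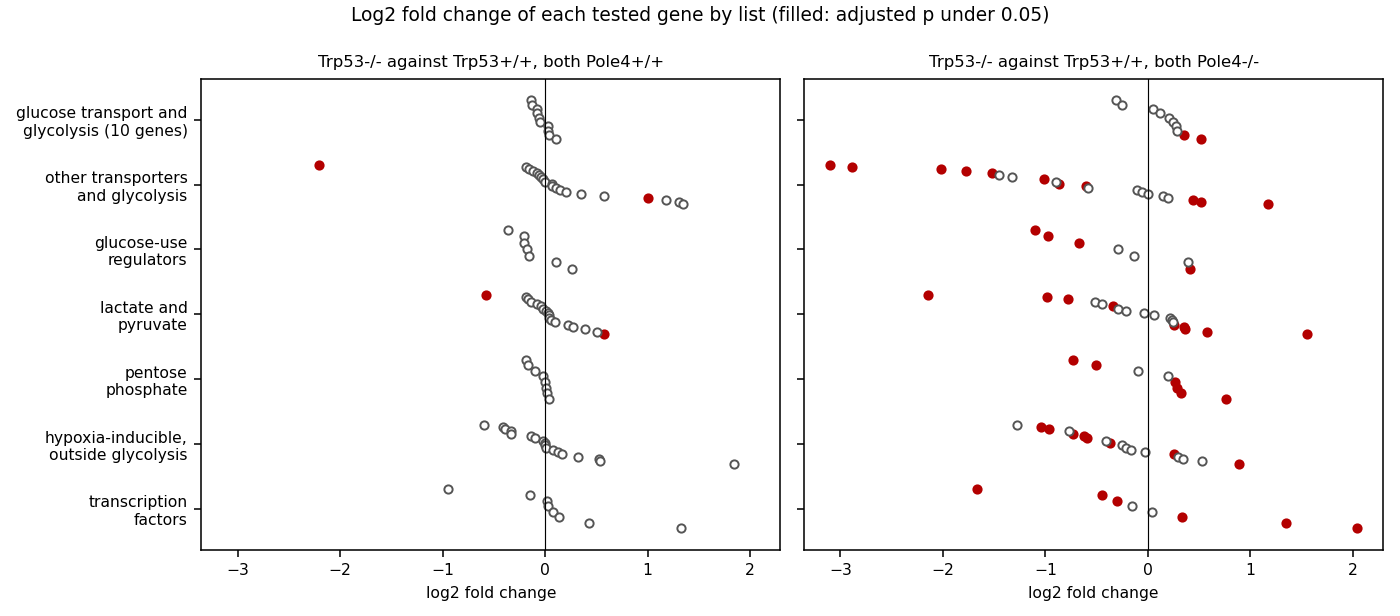
Log2 fold change of every tested gene, by list, for *Trp53*-/- against *Trp53*+/+ in *Pole4*+/+ (left) and *Pole4*-/- (right) cells; filled red points have an adjusted p under 0.05. The 10 glucose transport and glycolysis genes span -0.31 to 0.52 on the right, and the other transporters and isoforms span -3.10 to 1.17.

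By the mean of the 10 genes' centred log2 CPM, libraries ranged from -0.25 in *Pole4* null replicates to 0.19 in *Trp53*+/- libraries. *Pgam1* stayed closest to this mean profile, with a root mean square difference of 0.066 over the 18 libraries, and *Hk2* farthest, with 0.25. Among all other tested genes, the 5 closest were *Alkbh5* (0.067), *Serpinh1* (0.072), *Pdia6* (0.081), *Fam117b* (0.082) and *Sympk* (0.086), none of which is a glycolysis gene. In counts outside ribosomal RNA, the 10 genes took 0.520 ± 0.0176% (SD, n = 3) in *Pole4* null, 0.626 ± 0.0157% in wild-type, 0.682 ± 0.0248% in *Pole4* null p53 het and 0.615 ± 0.0567% in double null.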

How the data were processed

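Total RNA of 18 MEF samples had been made into cDNA and libraries with kits that do not mark strand, and sequenced as paired ends. The authors trimmed and aligned the reads with STAR 2.5.2 and quantified genes with RSEM 1.3.0 against Ensembl GRCm38. The deposited values are expected counts per gene, not normalized, of which 6.14% were not whole, and here they were rounded to whole numbers. The labels and the methods name different RNA extraction kits.

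Counts were filtered with filterByExpr, scaled by TMM and fitted with edgeR 4.0.16 (R 4.3.3) over all 18 libraries, with quasi-likelihood F-tests on 12 residual degrees of freedom for 8 comparisons of genotypes. SE is the log2 fold change divided by the square root of F. Benjamini-Hochberg adjustment ran over the 15710 genes tested, and an adjusted p under 0.05 is a call. The code was tested on simulated data first. Totals of 9535971 to 35319918 counts limit the low genes most, and 3 libraries a genotype allow no exact permutation p below 0.1. No libraries were repeats of each other. Symbols, coordinates and exons came from a GRCm38 annotation, which matched 51719 of 51912 identifiers, and promoter windows from RefSeq GRCm38.p6. Replicate numbers are shared between genotypes. The correlation of same-numbered libraries ran from -0.26 to 0.59, with a median of 0.098 against -0.06 for libraries of other numbers. They were not treated as pairs in the main fit, and a replicate block was run as an alternative.

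All 10 members are named. Of each other list, up to 2 called genes with the highest and up to 2 with the lowest log2 fold change were named per comparison, and genes so named may be given in further comparisons. Members and lists were chosen with earlier results of these data known. Alternatives were DESeq2 1.42.0, upper-quartile scaling, scaling by library totals without ribosomal RNA genes, no filter on low counts, a fit restricted to the libraries of a comparison, a replicate block, log2 *Xist* as a covariate, pseudogene counts added to their parent genes, and omission of each library. The pseudogenes added were only those with a member's symbol plus -ps or -rs. Adding *Eno1b* counts to *Eno1* was chosen after seeing the data.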

Additional observations from a re-analysis of the deposited data

Results flagged for a closer look

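*Pgls*, encoding the 6-phosphogluconolactonase of the pentose phosphate pathway, was the single gene of the glucose lists whose response to loss of *Trp53* differed between *Pole4* backgrounds in the interaction test. It stood at 27.4, 23.8 and 27.3 CPM in *Pole4*-/- *Trp53*+/+ and at 15.7, 16.4 and 15.4 CPM in *Pole4*-/- *Trp53*-/- libraries, without overlap. In the *Pole4*+/+ background it stood at 20.5, 21.8 and 23.4 CPM with *Trp53* and at 21.6, 20.4 and 22.6 CPM without it. The difference of the log2 fold changes was -0.702 (SE 0.13, adjusted p = 0.037 by edgeR). The call was kept in 7 of 18 single-library omissions, over which the difference ranged from -0.76 to -0.63, and it was lost in a fit of only these libraries and with log2 *Xist* as a covariate.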

How the results depend on the processing

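The number of the 10 genes called was 2 in *Pole4*-/- *Trp53*-/- against *Pole4*-/- *Trp53*+/+, 1 with *Xist* as a covariate, 3 with DESeq2 (*Pgk1* in addition), with library totals and with only the libraries compared (*Pgam1* in addition in both), 3 with upper-quartile scaling (*Pkm* higher, *Hk1* and *Pfkp* lower), and 1 to 3 without 1 library. In *Pole4*-/- *Trp53*+/- against *Pole4*-/- *Trp53*+/+ it was 3, and became 6 with DESeq2, with library totals and with no filter, 7 with only the libraries compared, 0 with *Xist* and 0 to 7 without 1 library. For *Pole4*-/- against *Pole4*+/+ in *Trp53*+/+ it was 0, then 2 with DESeq2, 3 with library totals, 3 with only the libraries compared and 0 to 2 without 1 library. For *Trp53*+/- against *Trp53*+/+ in *Pole4*+/+ it was 0 and 1 with DESeq2, and for the interaction 0, with 0 to 1 without 1 library. The other 3 comparisons gave 0 under all settings. Among the 39 member values tallied below, direction turned for *Aldoa* in *Pole4*-/- *Trp53*-/- (0.05, against -0.042 with upper-quartile scaling and -0.073 to 0.19 without 1 library). It also turned for *Hk1* in *Pole4*-/- *Trp53*+/- (-0.022 to 0.17 without 1 library) and for *Hk2* in *Pole4*+/+ *Trp53*-/- (-0.27 to 0.19 without 1 library). The causes were not tested. Over the 8 settings with all libraries, these 39 values kept direction and side of the threshold in 278 cases, passed it newly in 28 and no longer passed in 5. Of all 80 values (10 members in 8 comparisons), 27 turned direction under a setting or without 1 library, none of them over 0.0831 in size: 7 in each comparison of *Pole4* genotypes in *Trp53*+/- and *Trp53*-/- cells, 6 for *Trp53* loss and 2 for *Trp53*+/- in *Pole4*+/+ cells, 2 for *Pole4* loss in *Trp53*+/+ cells, and 1 in each of the other 3.

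Over all genes, calls ranged across the 8 settings from 5726 to 7194 for *Trp53* loss in *Pole4*-/- cells (main value 6699) and from 90 to 1312 in *Pole4*+/+ cells (723). For *Trp53*+/- they ranged from 101 to 2682 in *Pole4*-/- (805) and from 52 to 403 in *Pole4*+/+ cells (142). For *Pole4* loss in *Trp53*+/+ cells they ranged from 3 to 3358 (626), and for the interaction from 0 to 1791 (52). Scaling by library totals moved the share of calls that were higher from 57.8 to 76.0% for *Trp53*+/- in *Pole4*-/-, from 32.3 to 14.7% for *Pole4* loss in *Trp53*+/+, from 48.5 to 65.3% for *Trp53* loss in *Pole4*+/+ cells and from 53.8 to 69.2% for the interaction. With the replicate block, 4 members were called in *Pole4*-/- *Trp53*+/- instead of 3, where the block called 3.35% of all genes higher, and 548 genes instead of 52 in the interaction, and 11 of 18 libraries correlated best with their own number.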
